A study of Homo sapiens with 2 samples.

Results

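In the LDB1 peak list of NB4 leukemia cells, 249 peaks lay away from promoters and held an ETS motif at their centre without a GATA or AP-1 motif beside it. They were 2.25% of the 11046 deposited peaks and 2.61% of the 9532 peaks called distal here. A peak was distal when its midpoint was over 1000 bp from the transcription start site (TSS) of every transcript of every protein-coding gene. It was a member when the 200 bp around the midpoint held AGGAAGT or CGGAAGT on either strand, no GATA motif, which was read as AGATAA or AGATAG and likewise with T as the first base, and no AP-1 motif, which was TGACTCA with C or G at the middle base. These choices used sequence and position only, and no measured level.

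To map LDB1 on chromatin in acute myeloid leukemia (AML), CUT&Tag was carried out on NB4 cells, a human acute promyelocytic leukemia line. In this assay an antibody brings a transposase to the protein of interest, where it cuts nearby DNA and adds sequencing tags. One group was an LDB1 antibody library whose label gives LDB1 overexpression as the treatment, and the other was an IgG library labelled untreated, with 1 library in each. The methods name NB4 cells for CUT&Tag and do not mention overexpression there, so the treatment of the LDB1 library rests on its label. By the labels antibody and treatment changed together, both libraries came from the same line, and no library had a replicate. The deposited peaks came from the LDB1 library and gave where each peak lay and how long it was, without a height, so the depth is unknown and peak length stands in for peak height. All intervals in brackets are 95% intervals for counting error within this single library, and no test between conditions was possible.

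ETS proteins are a large family of transcription factors that recognise a GGAA core, and the bases around the core differ between subclasses. FLI1 and ERG are the ETS members of the blood stem cell heptad, a group of factors that also holds GATA2, RUNX1, TAL1, LYL1 and LMO2 and is found together at enhancers of blood progenitors. PU.1 is the ETS factor that directs myeloid development. LDB1 does not bind DNA. It binds LMO2, which joins it to factors that do, the best known being GATA factors and TAL1 with its E-box partner. Peaks with an ETS motif and no GATA motif at the centre are sites where the usual GATA letters were not in the window.

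The central 200 bp of 6 of these peaks are shown first, since they contain 3 of the longest members, a member in an intron of CELF2, the member nearest to the ETS gene ETV3, and the longest member that also held a RUNX motif and a TAL1 E-box, in an intron of CCDC113. Each is named by the gene of the nearest TSS and read from hg38, plus strand, 5′ to 3′, with the ETS motif of either strand in capitals. On the other strand AGGAAGT reads ACTTCCT and CGGAAGT reads ACTTCCG. The windows were chr11:69449484-69449683, chr5:154653688-154653887, chr4:110248521-110248720, chr16:58265476-58265675, chr10:11178298-11178497 and chr1:157311822-157312021.
MYEOV: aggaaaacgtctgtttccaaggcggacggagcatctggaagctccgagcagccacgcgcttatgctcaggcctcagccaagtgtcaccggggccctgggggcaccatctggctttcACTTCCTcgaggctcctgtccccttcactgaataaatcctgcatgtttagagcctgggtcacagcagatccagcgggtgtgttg
LARP1: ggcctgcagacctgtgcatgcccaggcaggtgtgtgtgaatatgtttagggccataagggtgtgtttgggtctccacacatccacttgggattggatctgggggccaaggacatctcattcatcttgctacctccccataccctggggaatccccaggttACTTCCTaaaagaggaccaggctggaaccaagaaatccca
ELOVL6: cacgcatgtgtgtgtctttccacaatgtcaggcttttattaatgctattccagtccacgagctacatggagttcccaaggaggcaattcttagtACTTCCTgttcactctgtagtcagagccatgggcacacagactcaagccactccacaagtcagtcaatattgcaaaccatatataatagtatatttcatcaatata
CCDC113: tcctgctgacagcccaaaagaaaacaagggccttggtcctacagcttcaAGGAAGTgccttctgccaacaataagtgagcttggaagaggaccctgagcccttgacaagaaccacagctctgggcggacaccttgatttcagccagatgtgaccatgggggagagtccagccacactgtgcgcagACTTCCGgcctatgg
CELF2: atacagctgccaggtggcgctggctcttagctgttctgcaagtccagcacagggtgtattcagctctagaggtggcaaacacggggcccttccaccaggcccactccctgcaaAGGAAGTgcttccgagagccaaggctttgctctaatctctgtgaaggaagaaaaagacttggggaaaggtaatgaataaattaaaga
ETV3: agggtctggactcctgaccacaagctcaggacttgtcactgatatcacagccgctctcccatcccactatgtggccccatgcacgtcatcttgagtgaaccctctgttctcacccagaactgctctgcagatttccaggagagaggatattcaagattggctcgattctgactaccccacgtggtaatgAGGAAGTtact

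The windows near CEBPE (chr14:23123711-23123910) and in STK10 (chr5:172150721-172150920) are added, after their sites were seen, because each held several ETS motifs close together.
CEBPE: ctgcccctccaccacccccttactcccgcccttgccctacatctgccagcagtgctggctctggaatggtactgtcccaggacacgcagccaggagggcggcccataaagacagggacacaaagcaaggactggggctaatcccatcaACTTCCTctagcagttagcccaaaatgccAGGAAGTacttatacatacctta
STK10: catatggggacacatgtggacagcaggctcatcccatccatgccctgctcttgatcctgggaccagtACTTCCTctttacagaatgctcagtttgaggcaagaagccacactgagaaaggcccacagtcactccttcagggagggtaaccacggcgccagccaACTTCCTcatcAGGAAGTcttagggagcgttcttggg

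Of the 9532 distal peaks, 579 (6.07%) held the ETS motif in the central window. Among these, 293 (50.6%) also held a GATA motif, 68 (11.7%) an AP-1 motif and 31 both, which left the 249 members, or 43.0% of the distal ETS peaks. The members closest to the distance limit were a peak 1026 bp from the TSS of GDF15 and a peak 1044 bp from that of HDAC7. On the other side of it, and so left out, were peaks 999 bp from the TSS of ZDHHC3 and 945 bp from that of VASN. "Distal" held only against protein-coding genes, since 21 members (8.43%) were within 1000 bp of a TSS of another gene type.

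The members were of ordinary length for distal peaks without a GATA motif. Their length ranged from 235 to 3044 bp with a median of 408 bp (382 to 444) and quartiles of 286 and 658 bp. The 4154 distal peaks with none of the 3 motifs had a median of 407 bp (400 to 415), which cannot be told from that of the members. The 293 distal peaks with both ETS and GATA were longer, with a median of 489 bp (459 to 530), and the intervals do not overlap. Only 31 members were over 1000 bp long.

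Among the longest members, a peak of 2167 bp was 1026 bp upstream of GDF15, a stress-induced ligand of the TGF-beta superfamily, and had a peak with a GATA motif 1805 bp away. The 3 whose windows are shown above were intergenic. Of these, a peak of 1809 bp lay 153998 bp from MYEOV, one of 1749 bp lay 29198 bp upstream of LARP1, which binds and regulates mRNAs of the translation machinery, and one of 1741 bp lay 49422 bp upstream of the fatty acid elongase gene ELOVL6. All 4 held a GATA motif in the peak outside the central window.

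**Figure D1:**
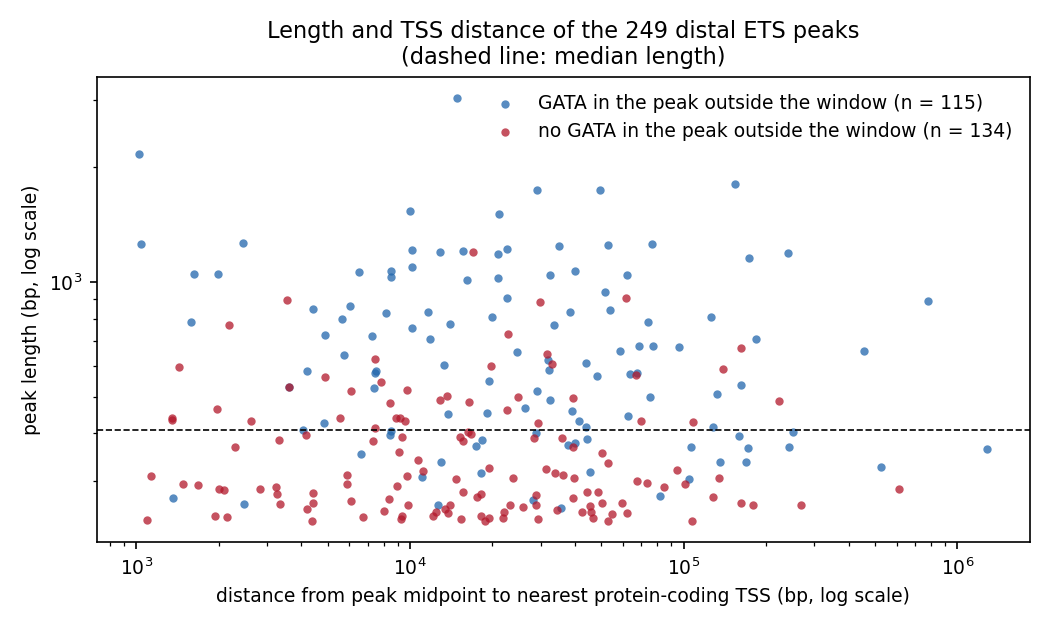
Length of each of the 249 members (bp, log scale) against the distance from its midpoint to the nearest protein-coding TSS (bp, log scale), with a point for each peak. Blue points are the 115 members with a GATA motif in the peak outside the central 200 bp, red points are the other 134, and the dashed line is the median length of 408 bp, above which most points are blue.

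Members were spread over introns and intergenic sequence. The midpoint fell in an intron of a protein-coding gene for 100 members (40.2%, 34.3 to 46.4), between protein-coding genes for 135 (54.2%, 48.0 to 60.3), in an untranslated exon for 11 (4.42%) and in a coding exon for 3, those of KBTBD6, KCNH2 and HR. Of the intergenic members, 41 were inside a long non-coding RNA gene, among them LINC02323 beside RCOR1, MEG3 beside DLK1 and PKN2-AS1 in the region of LMO4. Of the intronic members, 30 were in the first intron of a canonical transcript. The intronic share was 44.6% among distal peaks with none of the 3 motifs, a difference of -4.45 percentage points (-10.5 to 1.93) that includes 0.

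The median distance to a protein-coding TSS was 19505 bp (15661 to 25953), and 131 members (52.6%) were downstream of that TSS. There were 81 members between 1 and 10 kb from a TSS, 107 between 10 and 50 kb, 29 between 50 and 100 kb and 32 beyond. The farthest was 1285741 bp from its nearest gene, TMEM132B. Distal peaks with none of the 3 motifs had a median distance of 15153.5 bp (14402 to 16292), and the intervals overlapped.

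The ETS motif was only slightly more frequent at these peaks than beside them. Because the rule requires it in every member, the comparison was made over all 4403 distal peaks with no GATA or AP-1 motif in the window, of which 249 (5.66%) held ETS. Windows 1000 bp to either side, held to the same absence of GATA and AP-1, did so in 285 of 6123 cases (4.65%). The ratio was 1.21 (1.03 to 1.43), and at the share of these flanks 205 of the 4403 peaks would have held the motif. In 200 bp tiles across hg38 without GATA or AP-1 the share was 4.51%, or 4.60% when the tiles were weighted to the GC content of the peaks, a ratio of 1.23 (1.09 to 1.38). The bare ETS cores GGAAA and GGAAT were slightly less frequent in the peaks than in the flanks, at 57.0% and 59.0%, with a ratio of 0.966 (0.934 to 0.998).

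ETS sites did not gather at the peak centres. The 249 members held 262 ETS sites, of which 65 (24.8%, 19.97 to 30.4) lay within 25 bp of the midpoint and 123 (46.9%, 41.0 to 53.0) within 50 bp. An even spread of sites over the window would put 26.3% and 52.1% of them there. Over all 4403 distal peaks without GATA or AP-1, the 100 bp bins on either side of the midpoint held 3.07 and 3.04 ETS sites per 100 peaks. Higher values, 3.38 and 3.72, were found in the next bins outward, and the outermost bins held 2.59 and 2.34. The site was on the plus strand in 46.2% of cases, and of 114 sites inside a single protein-coding gene, 57 were on the strand of that gene.

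The form of the site was mostly AGGAAGT. This form made up 233 of the 262 sites (88.9%, 84.6 to 92.2) and CGGAAGT the other 29 (11.1%, 7.82 to 15.4). At the 72 peaks within 1000 bp of a TSS that met the same motif rule, CGGAAGT made up 23 of 74 sites (31.1%, 21.7 to 42.3), a share whose interval lies above that of the members. In the flanks it was 7.85% and over all 695122 sites of hg38 it was 8.21%, both within the interval of the members.

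Among the CGGAAGT sites, 16 had a C ahead of them and read CCGGAAGT, the letters preferred by the largest subclass of ETS factors. That is 6.11% of the sites of the members (3.79 to 9.69), compared with 3 of 293 sites in the flanks (1.02%, 0.349 to 2.97), 2.06% over hg38 and 14.9% near a TSS. These 16 members included peaks near the T cell surface gene CD7 (chr17:82298038-82298362), the interleukin-1 receptor gene IL1R1 (chr2:102050953-102051205), the mRNA decay factor gene ZFP36L1 (chr14:68741003-68741265) and CD47, whose protein signals to phagocytes not to engulf the cell (chr3:108127321-108127574). By window, CCGGAAGT was found in 6.43% of the members (3.99 to 10.2). This interval holds the 4.15% of tiles that met the motif rule when weighted to the GC content of the members. In distal peaks with ETS and GATA the share was 3.75%, a difference of 2.67 points (-1.07 to 6.77) that includes 0. The 28 members with CGGAAGT had a median GC content of 57.5% (51.5 to 60.5) and the 221 with AGGAAGT alone 51.5% (50 to 52.5). Their median lengths were nearly the same, at 406.5 and 408 bp.

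Among the AGGAAGT sites, CAGGAAGT was the most frequent, with 84 sites (32.1%, 26.7 to 37.9), against 22.8% over hg38 and 29.0% in the flanks. GAGGAAGT, the letters favoured by PU.1, followed with 67 sites (25.6%, 20.7 to 31.2), against 22.3% over hg38 and 27.0% in the flanks. AAGGAAGT, which leads in hg38 at 29.5%, made up 50 sites (19.1%), near the 17.7% of the flanks. CAGGAAGT and GAGGAAGT were the leading forms in the members and in the flanks, and AAGGAAGT the leading form over hg38.

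Most members had a single site. There were 237 members with 1 site, 11 with 2 and 1 with 3, the member of 295 bp in intron 2 of STK10, a serine/threonine kinase gene (chr5:172150674-172150968), where 2 of the sites were 4 bp apart on opposite strands. The 13 gaps between neighbouring sites ranged from 4 to 129 bp, and 5 were at most 25 bp. These 5 lay in STK10, in intron 1 of CELF2 (6 bp apart), and near CEBPE (22 bp), CD83 (22 bp) and IER5 (25 bp). The pair near CEBPE, the C/EBP factor of late granulocyte development, was on opposite strands, as the window above shows, in a peak of 896 bp that lay 3555 bp upstream of the gene.

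The absence of GATA held for the central window and not for the whole peak. A GATA motif was found in the peak outside the window for 115 members (46.2%, 40.1 to 52.4), and an AP-1 motif for 27 (10.8%). Neither motif was found anywhere in the peak, window edges included, for 122 members (49.0%). The share with GATA outside the window rose with the length available, from 6 of 71 members under 300 bp (8.45%) through 48 of 106 from 300 to under 600 bp (45.3%) to 61 of 72 at 600 bp or more (84.7%), and it was 30 of 31 over 1000 bp. It did not mark the members out, since distal peaks with none of the 3 motifs had GATA outside the window in 46.5% of cases, a difference of -0.349 points (-6.62 to 6.04).

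Allowing for length, GATA motifs were denser inside the members than beside them. The parts of the members outside the window held 226 GATA sites in 85296 bp, or 2.65 per kb, and the 1 kb beyond each end held 1.91 per kb, a ratio of 1.39 (1.20 to 1.60). TAL1 E-boxes (CAGATG or CAGCTG) had a ratio of 1.54 (1.30 to 1.82) and further ETS sites, 34 in number, a ratio of 1.70 (1.16 to 2.49). For RUNX motifs (TGTGGT or TGCGGT) the ratio was 0.952 (0.754 to 1.20). In distal peaks with none of the 3 motifs the ratios were 1.24 (1.20 to 1.29) for GATA and 1.38 (1.32 to 1.44) for the E-box. They were 1.20 (1.09 to 1.32) for ETS and 1.14 (1.08 to 1.20) for RUNX, and all these intervals overlapped those of the members. In distal peaks with ETS and GATA they were 1.10 (0.956 to 1.26), 1.36 (1.16 to 1.61), 1.40 (0.988 to 1.98) and 1.53 (1.26 to 1.86). Only the interval for RUNX there lay apart from that of the members. By position, the 100 bp bins just outside the window held 32.9 and 30.1 GATA sites per 100 members, and bins 1050 bp away held 16.5 and 16.9.

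The composite element known for the LDB1 complex, an E-box remnant spaced ahead of a GATA motif, was found somewhere in the peak for 27 members (10.8%, 7.56 to 15.3). The share was 14.3% (13.2 to 15.4) in distal peaks with none of the 3 motifs, and 29.0% (24.1 to 34.5) in distal peaks with ETS and GATA. The element holds a GATA motif, which is barred from the central window of the members and of the peaks with none of the 3 motifs. Peaks with ETS and GATA all hold a GATA motif there, so the contrast with them is set in part by how the groups were defined.

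**Figure D2:**
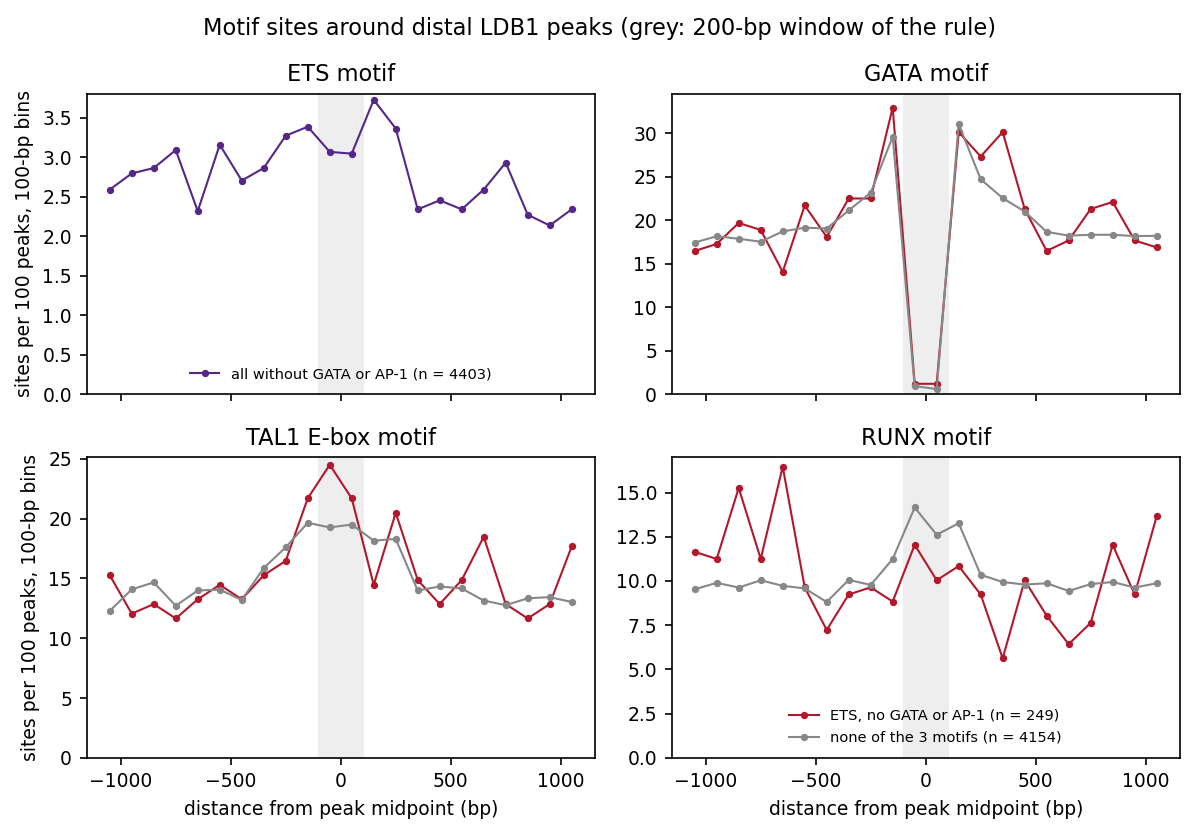
Motif sites per 100 peaks in 100-bp bins against distance from the peak midpoint (bp), for ETS over all 4403 distal peaks without GATA or AP-1, and for GATA, TAL1 E-box and RUNX motifs in the 249 members (red) and the 4154 distal peaks with none of the 3 motifs (grey). The grey band is the 200-bp window, where the rule removes GATA and only sites across its edges remain. ETS has no maximum at the midpoint. GATA sites stand at 32.9 and 30.1 per 100 members in the bins just outside the window, and at 30.1 again in the bin centred at 350 bp.

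Other LDB1 peaks were often close by. For 79 members (31.7%, 26.3 to 37.7) a peak with a GATA motif in its own window lay within 10 kb. A peak with the composite element did so for 20 (8.03%, 5.26 to 12.1). Among distal peaks with none of the 3 motifs these shares were 35.4% (34.0 to 36.9) and 9.65% (8.79 to 10.6). Among those with ETS and GATA they were 29.0% (24.1 to 34.5) and 8.19% (5.57 to 11.9). The intervals overlapped those of the members, so neither share marked the members out. Any peak lay within 10 kb for 150 members (60.2%, 54.1 to 66.1), compared with 59.4% of distal peaks with none of the 3 motifs and 45.7% (40.1 to 51.5) of those with ETS and GATA. The member near CEBPE was one with a composite peak close by, at 2984 bp. By contrast, the intergenic member 46763 bp upstream of SLC23A2, a vitamin C transporter gene, had its nearest other peak 492518 bp away.

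Of 16 further motifs searched in the central window, 14 had a share in the members whose difference from distal peaks with none of the 3 motifs included 0. The exceptions were STAT and the bare ETS cores GGAAA and GGAAT, the latter at 63.1% against 56.6%, a difference of 6.41 points (0.0768 to 12.4). The bare cores were found in 62.5% of peaks with ETS and GATA, in 60.2% of windows 1000 bp from the members and in 62.4% of GC-weighted tiles that met the rule. Unlike the flanks of the ETS ratio, windows 1000 bp from the members were not held to the absence of GATA or AP-1. Of these windows, 25.9% held a GATA motif. A TAL1 E-box lay in 86 members (34.5%, 28.9 to 40.6) and in 31.3% of distal peaks with none of the 3 motifs. It lay in 32.8% of peaks with ETS and GATA, and in 24.3% (20.8 to 28.3) of windows 1000 bp from the members. Its share therefore stood above the surroundings but not apart from other distal peaks, the difference from peaks with none of the motifs being 3.19 points (-2.61 to 9.45). The RUNX motif was found in 44 members (17.7%, 13.4 to 22.9), against 21.5% of peaks with none of the motifs, 19.5% of peaks with ETS and GATA and 18.1% of the flanks, so no excess of RUNX was detectable. Any E-box of the forms CACNTG or CAGNTG was found in 65.5% of the members and 66.3% of peaks with none of the motifs.

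The STAT motif was more frequent in the members than in the peaks with none of the 3 motifs. Its letters were TTCCNAGAA, TTCCNGGAA, TTCTNAGAA or TTCTNGGAA, as recognised by the factors that act below cytokine receptors. It was found in 18 members (7.23%, 4.62 to 11.1), in 2.65% of distal peaks with none of the 3 motifs and in 1.61% of windows 1000 bp from the members. The difference from the former was 4.58 points (1.92 to 8.51), and from peaks with ETS and GATA, at 4.78%, it was 2.45 points (-1.59 to 6.80), which includes 0. An ETS site and a STAT site share the letters GGAA. In 2 of the 18 members the STAT site shared bases with the ETS site, and without these the share was 6.43% (3.99 to 10.2). Tiles that met the motif rule at the GC content of the members held the motif in 3.63% of cases. The intervals are not adjusted for the number of motifs searched.

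The 18 members with a STAT motif included the long peak upstream of GDF15, a peak of 807 bp 19998 bp from the glutathione transferase gene GSTA3, peaks near KALRN and the kinase gene NLK, the peak of 309 bp 1131 bp from ACVRL1, a receptor of the TGF-beta superfamily, and the peak of 239 bp in intron 1 of CELF2. Only 4 of the 18 also held a TAL1 E-box.

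The KLF motif (CCACACCC, CCACGCCC, CCCCACCC or CCCCGCCC) was found in 37 members (14.9%, 10.98 to 19.8), against 8.63% (6.47 to 11.4) of windows 1000 bp away and 9.37% of GC-weighted tiles that met the rule. Distal peaks with none of the motifs held it in 13.7% of cases. The MYB motif (CAACNG or the same with T as the first base, where N is not A) was found in 19.3% of the members and in 28.3% of peaks with ETS and GATA, a difference of -9.05 points (-16.0 to -1.83), and peaks with none of the 3 motifs held it in 19.2% of cases. The CEBP motif TTGCNNAA was found in 8.03% of the members and in 7.13% of peaks with none of the motifs, and CTCF in 0.402% and 1.04%. A match of letters is a description of the sequence and does not show that a factor was bound.

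**Figure D3:**
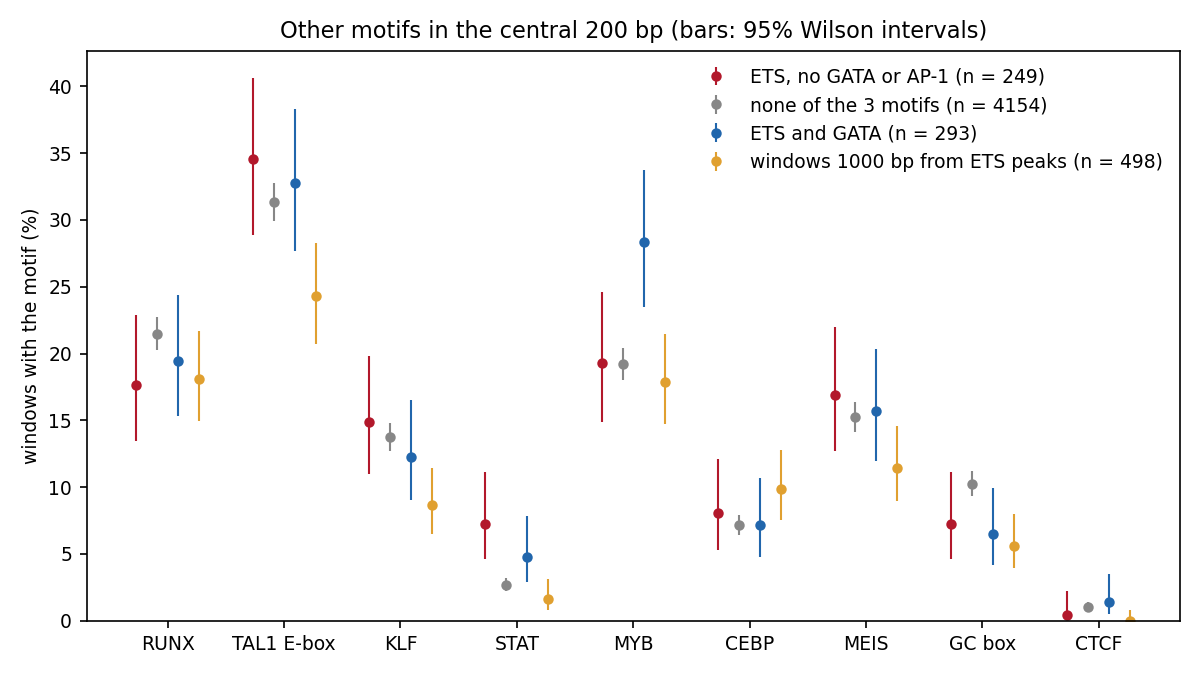
Share of central 200 bp windows (%) with each of 9 other motifs, as points with 95% Wilson intervals, in the members (red), distal peaks with none of the 3 motifs (grey), distal peaks with ETS and GATA (blue) and windows 1000 bp from the members (yellow). The members lie at 7.23% for STAT, above the 2.65% of peaks with none of the motifs, and at 34.5% for the TAL1 E-box, above the 24.3% of the windows beside them.

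RUNX and TAL1 motifs, which belong to the partners of ETS factors in the heptad, occurred together in 20 members (8.03%, 5.26 to 12.1). A further 24 held RUNX alone, 66 the TAL1 E-box alone, and 139 (55.8%) neither. The longest of the 20 were a peak of 1205 bp in intron 6 of CCDC113, one of 1045 bp 62117 bp upstream of TMEM63B, and one of 1029 bp in intron 1 of RGS12, a regulator of G protein signalling, which held 2 CGGAAGT sites 59 bp apart. Others were nearest to or in XPR1, which exports phosphate (249 bp), SLC23A2 (239 bp), GALM (243 bp) and TXN2, the mitochondrial thioredoxin (425 bp). The shortest was a peak of 238 bp 29217 bp upstream of HPSE, the heparanase gene. The rest were tied to ARHGEF37, ARHGAP6, ARHGAP18, C5orf15, MDM1, UST, PITPNM2, PLPP7, MCC, AVPR2, ABHD2 and ZC3H4, with lengths from 256 to 834 bp. In 12 of the 44 members with RUNX and 22 of the 86 with the E-box, that motif was at most 20 bp from an ETS site. Neither the share with both motifs nor this nearness was computed for other peaks or for an even spread of sites. These counts therefore describe the members and show no excess.

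By host or nearest gene, 249 protein-coding genes were tied to a member, of which 230 had 1 member and 19 had 2, and none had 3 or more. The nearest gene is a label of position and need not be the gene a site acts on. Of these genes, 191 (76.7%) were also tied to another distal LDB1 peak, as were 4550 of all 20007 protein-coding genes (22.7%). The bases of these shares differ, since every gene of the former is already tied to a distal peak and most of the latter are tied to none. The like share for genes tied to other distal peaks was not computed. Genes with 2 members included KMT2E, whose members of 241 and 529 bp lay 2151 and 3598 bp from its TSS, MAML2, a coactivator of Notch, with members of 272 and 458 bp in its introns, and NLK, with members of 527 and 571 bp.

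Over all protein-coding genes, 249 of 20007 (1.24%) were tied to a member, and so were 5.40% of the 4608 genes tied to any distal peak. The counts in the gene lists below are small, and among genes with any distal peak the interval of each list held this 5.40%. None of the 7 heptad genes was tied to a member, which for the 5 of them with a distal peak leaves an interval of 0 to 43.4%. Of 15 genes of the LDB1 complex and its relatives, 1 was, namely LMO4, which encodes a LIM-only protein that binds LDB1. Its member of 658 bp (chr1:87786535-87787192) was 455082 bp from the TSS and had a composite peak 32491 bp away. Among 28 ETS family genes, 1 was tied to a member, ETV3, which encodes an ETS repressor. This member of 1154 bp (chr1:157311346-157312499) was 173448 bp upstream and held a RUNX motif.

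Of 31 stem cell and leukemia factors, 3 were tied to a member, or 15% (5.24 to 36.0) of the 20 with any distal peak. ZFP36L1 had 2 members, of 1096 and 263 bp, at 10132 and 50109 bp from its TSS, ZFP36L2 had a member of 367 bp at 171972 bp, and MYC had a member of 263 bp inside PVT1, 162153 bp downstream. ZFP36L1 and ZFP36L2 encode related RNA-binding proteins that promote mRNA decay. Of 29 myeloid factors and receptors, CEBPE and IL1R1 had a member. Those of CEBPE and IL1R1 contrasted in length, at 896 and 253 bp, and in ETS form, with 2 AGGAAGT sites against 1 CGGAAGT site. None of 20 granule and phagocyte genes and none of 29 kinase signalling genes was tied to one, but only 6 and 14 of them had any distal peak.

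In each of the 4 lists that follow, 1 gene was tied to a member, out of 8, 18, 5 and 7 genes with any distal peak. ITGB3, the beta 3 integrin of platelets, was the one of 17 megakaryocyte and platelet genes, with a member of 772 bp in intron 6 (chr17:47288488-47289259). ANK1, which anchors the red cell membrane skeleton, was the one of 23 red cell genes, with an intronic member of 391 bp. CD7 was the one of 20 lymphoid genes, with a member of 325 bp 19350 bp from its TSS. PECAM1, an adhesion protein of endothelium, platelets and leukocytes, was the one of 17 adhesion and endothelial genes, with a member of 564 bp in intron 2 (chr17:64385414-64385977).

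Of the 17 of 19 candidate target genes of the study that could be matched, 2 had a member, or 15.4% (4.33 to 42.2) of the 13 with any distal peak. The study chose its candidates with binding data for LDB1 and for the ETS factors ERG and FLI1, among others. Super-enhancers and expression change after LDB1 knockdown were its other criteria. CELF2, an RNA-binding regulator of splicing, had 2 members in its introns, of 1202 bp (chr10:11177798-11178999) and 239 bp (chr10:11145406-11145644), and ZFP36L2 had the one given above. The study lists 1101 genes as shared by its LDB1 ChIP-Seq peaks and its RNA-seq. That ChIP-Seq was a separate assay of NB4 cells from the CUT&Tag used here. Of the 1006 genes that could be matched, 46 (4.57%) were tied to a member. The study chose that list with LDB1 peaks. Among those of its genes tied to any distal peak the share was 6.44% (4.86 to 8.49) of 714, against 5.40% (4.79 to 6.09) over all genes with any distal peak.

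A few further members are named after their positions were seen and stand for no group of genes. A member of 371 bp was in an intron of PTPRC, the CD45 phosphatase of leukocytes, and one of 886 bp lay 29957 bp from CSF2, which encodes the growth factor GM-CSF. One of 439 bp was in an intron of SMAD3, and one of 623 bp lay 31832 bp upstream of TGFBR1.

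Chromosome 14 held more members than its share of distal peaks. There were 17 members among its 252 distal peaks (6.75%, 4.25 to 10.5), against 2.61% over all chromosomes, and it was the only chromosome whose interval lay above that value. Chromosome 16 was lowest, with 2 of 315 (0.635%, 0.174 to 2.29), the only interval below it. With 23 chromosomes compared and no adjustment, these are descriptions. The 17 were not evenly spaced along the chromosome. The intervals treat each peak as independent, which neighbouring peaks need not be. The 17 included neighbouring pairs in the FNTB and MAX locus (1210 and 1066 bp), upstream of RCOR1, the CoREST corepressor gene (430 and 1070 bp), and near ZFP36L1. The CEBPE member and a member of 247 bp inside MEG3 were also among them. Over the genome, 13 neighbouring pairs of members lay within 50 kb of each other, the closest pair being that upstream of RCOR1, 1185 bp apart.

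**Figure D4:**
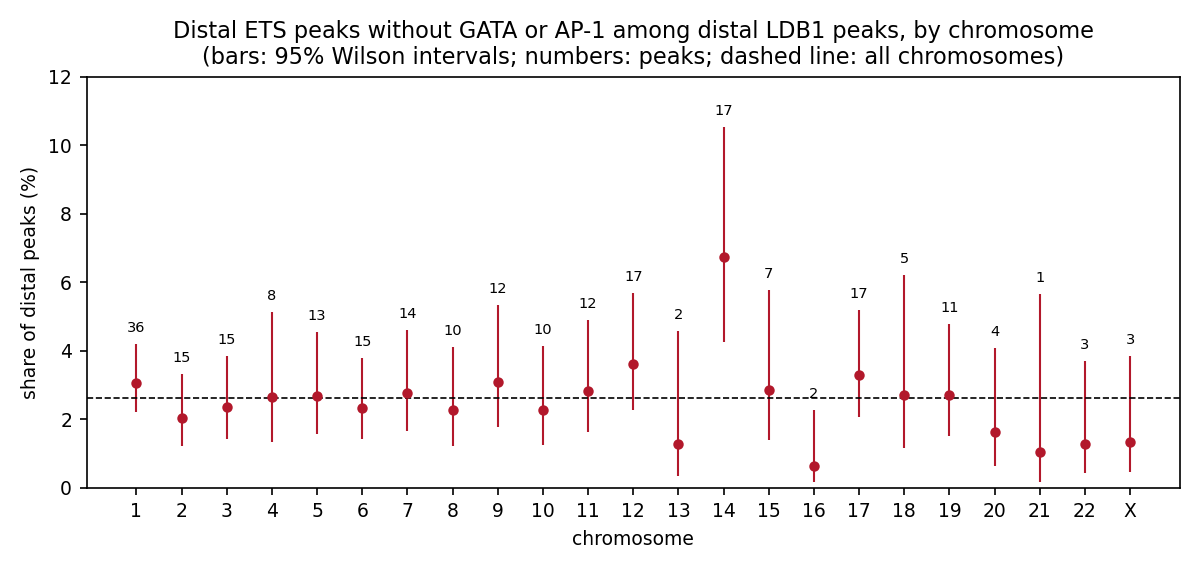
Members as a share of distal LDB1 peaks (%) on each chromosome, with 95% Wilson intervals, the number of members above each bar and the share over all chromosomes (2.61%) as a dashed line. Chromosome 14 lies at 6.75% with its interval above the line and chromosome 16 at 0.635% with its interval below it.

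Few members had a repeated centre. In 16 members the 31 bases at the centre had at least 1 further copy in hg38 (6.43%, 3.99 to 10.2), compared with 15.0% of distal peaks with none of the 3 motifs, a difference of -8.55 points (-11.2 to -4.65), and 6.14% of those with ETS and GATA. The highest count was 1766 copies, at a member of 236 bp near VAMP1. One of the members upstream of RCOR1 had 19 copies. The position of a member with a repeated centre is less certain than that of a member without one.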

How the data were processed

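The authors made 1 CUT&Tag library for LDB1 and 1 for IgG from NB4 cells. Per the labels, Bowtie2 (v 2.4.4) served for alignment, hg38 was the reference and MACS3 (v 3.0) called the peaks. Whether IgG served as the control is not given in the sources used here, and a list made without a control can hold more open or repeated sequence. The deposited values were start, end and length in bp, counted from 1, with no score, so no depth or peak height was available. The IgG library was not analysed here.

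Distances used GENCODE release 44. The window ran from 100 bp before to 99 bp after the midpoint. Flanks were windows centred 1000 bp to either side. Genome tiles were consecutive 200 bp of hg38, weighted by GC content in steps of 2% where stated. Intervals were Wilson (shares), order-statistic (medians), log-normal (ratios) and Newcombe (differences). For the ratio to GC-weighted tiles, the Wilson limits of the peak share were instead divided by the tile share, taken as fixed. The ETS search was run on simulated windows, where 1000 of 1000 planted AGGAAGT or CGGAAGT sites were found. The exact letters searched for were planted, so this checks the code only, and no other motif was planted. The software was numba 0.67.0, SciPy 1.17.1, numpy 2.4.6, matplotlib 3.10.9 and pandas 2.3.3 under Python 3.11.15.

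The members and gene lists were chosen with earlier results of these data known. Members named were the 5 longest, those with at least 3 ETS sites, those tied to a listed gene, and those with both RUNX and TAL1 E-box motifs. Others named were chosen after their values were seen, and 1 member that the rule names is not reported here.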

Additional observations from a re-analysis of the deposited data

How the results depend on the processing

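Each main value was recomputed under other distance limits, window sizes, TSS sets, peak subsets and backgrounds. Of 56 alternatives over 10 results, 43 stayed within the limits set and 13 did not. The limits were the interval of the reported value or, for the number of members, which has no interval, a fixed fold change. The cause of the 13 moves was not tested except where the setting itself removes sequence or peaks. The number of members was 122 when GATA and AP-1 had to be absent from the whole peak and 107 among the peaks of at least median length, against 249. The ratio of ETS to flanks turned below 1, to 0.966, with the bare cores GGAAA and GGAAT, and was 1.62 (0.942 to 2.79) for CGGAAGT alone. Among those longer peaks it was 1.25 (0.967 to 1.61), an interval that includes 1, and the median length there was 726 bp. A window of 100 bp gave shares of 11.2% for RUNX, 14.0% for the TAL1 E-box, 64.6% for GATA outside the window and 22.5% for a GATA peak within 10 kb. GATA outside the window was 73.8% among the longer peaks and, as an alternative added after seeing the data, 69.0% in members of at least 400 bp. A GATA peak was near 25.2% of the members among the longer peaks, and near 59.4% when the limit was 50 kb. No paired analysis was possible because neither antibody had a replicate library.

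With no peak heights, summits or read counts, peak length and midpoint took their place, and a change in read depth or peak calling could not be examined. Without replicates the intervals do not cover variation between cultures.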
